A study of Rattus norvegicus with 4 samples.

Results

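Expression of the genes of the laminin basement membrane and of its integrin receptors was examined in S16 cells, an immortalized rat Schwann cell line. The set was named by gene symbol and not by a measured value, though earlier results of these data were known. It comprised the laminin chains, the nidogens, perlecan, agrin and the integrin alpha and beta subunits. Of the 40 genes named, 39 were among the 30708 genes listed for each library, and Hspg2, which encodes perlecan, was not analysed here. RNA-Seq data came from 2 populations of unmodified S16 cells, one at passage 9 and one at passage 39, and each population gave 2 libraries that the labels call technical replicates. The cells of both groups carried no engineered allele and received no treatment, and both were grown in standard medium with L-glutamine. The passage 9 cells were those from which the study derived its edited lines, which are not analysed here. Each passage was thus represented by 1 culture of a single immortalized line, and the labels name the cells as myelinating Schwann cells although no nerve tissue was sampled.

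Laminins are cross-shaped trimers of an alpha, a beta and a gamma chain that polymerize into the sheet of a basement membrane, where nidogens tie them to type IV collagen and the proteoglycans perlecan and agrin join in. Integrins are receptors made of an alpha and a beta subunit that bind this sheet from the cell side, and the pair decides the ligand. In peripheral nerve, each Schwann cell builds a basal lamina around itself, and laminin and its beta 1 integrin receptors are needed for the cells to sort and then myelinate axons.

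The values were RPKM, reads per kilobase of gene per 1000000 reads, so levels can be compared between genes. Read totals, worked back from the values, were between 34.2 and 41.4 M (M, 1000000 reads), with 79.4% to 81.5% of the reads on listed genes. A gene was counted as detected when its mean was at least 1 RPKM in both populations. Of the Schwann cell markers, 8 of 9 had a mean of at least 1 RPKM, among them Erbb3, a receptor for neuregulin, at 89.2 RPKM, and the other one, Cdh19, was at 0.938 RPKM. Of 8 endothelial and perineurial markers, 1 reached a mean of 1 RPKM, Slc2a1 at 13.3 RPKM, and the defining endothelial genes Cdh5, Kdr and Cldn5 were listed at 0 in all 4 libraries. Of 10 leukocyte markers, Cd68 alone reached 1 RPKM, at 1.40 RPKM, the list summed to 1.48 to 1.66 RPKM over the libraries, and 4 genes including Ptprc were at 0. None of 4 platelet markers reached 1 RPKM, with Pf4 and Ppbp at 0, and 2 of 6 epithelial markers did, Krt14 at 4.44 and Krt8 at 2.11 RPKM. Of 9 fibroblast markers, 4 did, namely Col1a1 at 3588, Col3a1 at 65.9, Mfap5 at 26.4 and Pdgfra at 5.35 RPKM, while Thy1 was at 0. The libraries did not group by population. In both passages, technical replicate 2 differed from technical replicate 1 in the same way, and 87.7% of the 11025 genes whose mean reached 1 RPKM had both second replicates above or both below the 2 first replicates. The same held between passages for 6.21% of these genes. What the replicate number stands for is not given in the labels. The study's methods state that technical replicates were pooled and sequenced over 2 lanes, without tying the numbers to lanes. A difference in library preparation, a sequencing run and an exchange of labels thus cannot be told apart. The SD over the 2 populations does not hold this spread, so the 4 values or their range are also given for each detected gene, beside its mean or in the comparison of replicate numbers.

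Of the 39 genes, 23 were detected. Together the 39 genes took between 0.547% and 0.790% of the summed RPKM of a library. The detected genes covered every part of the basement membrane that was measured: 3 of 5 laminin alpha chains, 2 of 3 beta chains, 1 of 2 gamma chains, both nidogens and agrin, together with 10 of 18 integrin alpha and 4 of 8 integrin beta subunits. Levels among the detected genes ranged from 1.54 RPKM for Itga3 to 462 RPKM for Itgb1, which ranked 60 among all genes by mean RPKM.

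**Figure D1:**
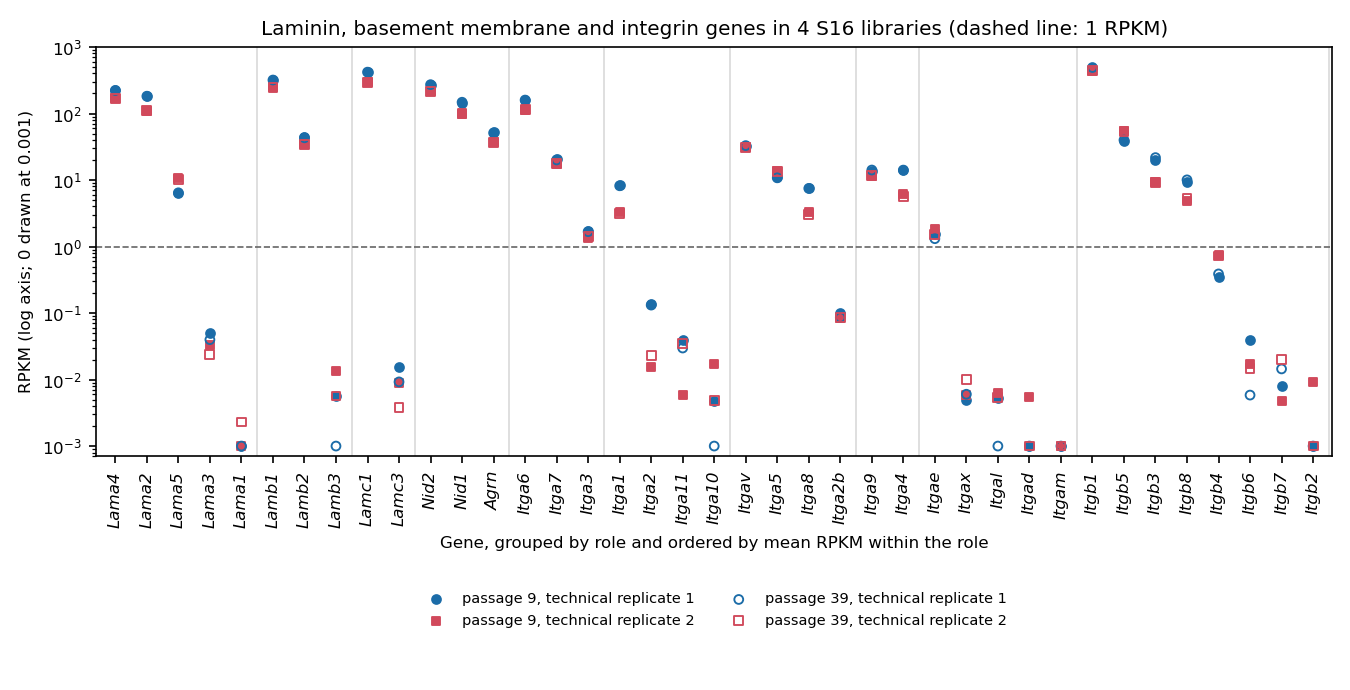
RPKM of the 39 genes in each of the 4 libraries on a log axis, grouped by role, with circles for technical replicate 1 and squares for technical replicate 2, filled for passage 9 and open for passage 39. The 23 detected genes lie above the dashed line at 1 RPKM, and filled and open symbols of the same replicate number nearly coincide for most of them, while circles and squares are apart.

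The laminin genes of S16 cells were dominated by 2 alpha chains, 1 beta chain and 1 gamma chain. Among the alpha chains, Lama4, an alpha chain of endoneurial and vessel basement membranes, was at 196 ± 0.354 RPKM (SD, n = 2 populations). Its levels were 223 and 169 RPKM for passage 9, and 222 and 171 RPKM for passage 39, in the order of technical replicates 1 and 2. Lama2, the alpha chain of merosin and the main one of the mature Schwann cell basal lamina, was at 146 ± 0.176 RPKM, with 181 and 110 RPKM in the passage 9 pair and 182 and 110 RPKM in the passage 39 pair. Lama4 was above Lama2 in all 4 libraries, and the ratio of Lama2 to Lama4 was 0.813 and 0.654 at passage 9 and 0.821 and 0.644 at passage 39. Lama5, an alpha chain of many epithelial and adult basement membranes, was far lower, at 8.42 ± 0.138 RPKM and between 6.33 and 10.7 RPKM in single libraries.

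Lamb1 and Lamc1 encode the beta and gamma chains that most laminin trimers share. Lamc1 was at 357 ± 0.727 RPKM, with 422 and 293 RPKM for passage 9, and 419 and 294 RPKM for passage 39. Lamb1 was at 284 ± 1.95 RPKM, with 322 and 248 RPKM in the passage 9 pair and 319 and 246 RPKM in the passage 39 pair. Both passages gave nearly the same pair of values for each gene, and technical replicate 1 was the higher one each time. Lamb2, the beta chain of laminins at the neuromuscular synapse and in the kidney filter, was at 39.1 ± 0.509 RPKM, ranging from 34.2 to 43.8 RPKM over the libraries. Lamb1 made up 87.6% to 88.1% of the summed RPKM of the beta chains.

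The summed RPKM of the alpha chains and of the gamma chains were close to each other in every library. The alpha chains summed to 411 and 290 RPKM for passage 9, and 410 and 291 RPKM for passage 39, and the gamma chains to 422 and 293 RPKM and to 419 and 294 RPKM. The ratio of the alpha to the gamma sum was between 0.973 and 0.989. The beta chains summed to 366 and 283 RPKM in the passage 9 pair and 362 and 280 RPKM in the passage 39 pair, which was between 0.864 and 0.965 of the gamma sum. These are sums of RNA levels, and no chain protein was measured.

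The chains Lama3, Lamb3, Lamc3 and Lama1 were not detected. Lama3, an alpha chain of skin basement membranes, rested on 10 to 21 reads per library, which gave 0.0237 to 0.0494 RPKM. Lamc3 had 1 to 4 reads and Lamb3, the beta partner of Lama3 in skin, 0 to 2 reads per library. Lama1, the alpha chain of the first embryonic basement membranes, had 1 read in a single library, passage 39 technical replicate 2, and 0 in the other 3, where 3 reads would correspond to between 0.00686 and 0.00829 RPKM.

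The bases just upstream of the start sites are shown for the alpha, beta and gamma chains that gave most laminin RNA, because the 2 alpha chains and the 2 partner chains differ in base composition there. Each run holds the 250 bases before the annotated start of the gene, 5′ to 3′ on the strand of the gene, from the RefSeq promoter table of build GRCr8. Capitals mark GGGCGG, the core of a GC box, and TATAAA, each on either strand, together with ACAAAG and ACAATG, the core letters bound by SOX proteins.
Lama4, chr20:43946648-43946897, plus strand: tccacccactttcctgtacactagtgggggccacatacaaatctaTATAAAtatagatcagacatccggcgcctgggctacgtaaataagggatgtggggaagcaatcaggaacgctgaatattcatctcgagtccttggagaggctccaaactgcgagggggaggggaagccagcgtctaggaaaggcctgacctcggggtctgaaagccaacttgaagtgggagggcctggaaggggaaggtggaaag
Lama2, chr1:19491896-19492145, plus strand: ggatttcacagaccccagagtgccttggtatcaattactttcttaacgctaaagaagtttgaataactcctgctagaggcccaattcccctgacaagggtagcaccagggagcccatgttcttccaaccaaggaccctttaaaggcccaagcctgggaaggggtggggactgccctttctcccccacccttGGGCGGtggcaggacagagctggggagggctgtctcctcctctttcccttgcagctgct
Lamb1, chr6:53562846-53563095, plus strand: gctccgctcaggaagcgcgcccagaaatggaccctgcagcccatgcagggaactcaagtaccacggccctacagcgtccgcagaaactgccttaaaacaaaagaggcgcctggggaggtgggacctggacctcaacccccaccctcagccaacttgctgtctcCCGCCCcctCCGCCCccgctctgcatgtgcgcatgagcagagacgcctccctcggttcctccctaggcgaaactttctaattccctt
Lamc1, chr13:68051987-68052236, minus strand: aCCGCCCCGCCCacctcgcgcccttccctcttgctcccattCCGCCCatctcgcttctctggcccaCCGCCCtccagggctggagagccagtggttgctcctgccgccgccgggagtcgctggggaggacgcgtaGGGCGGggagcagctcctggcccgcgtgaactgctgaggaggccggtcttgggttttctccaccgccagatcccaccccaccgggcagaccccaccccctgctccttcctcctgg

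The Lamc1 window had a GC content of 71.2% with 19 CpG and 5 matches to GGGCGG, and the Lamb1 window 62.0% with 14 CpG and 2 matches. The alpha chain windows were poorer in CpG, with 8 in Lama4 and 2 in Lama2 and a GC content of 53.2% and 55.6%. Lama4 had no match to GGGCGG and 1 to TATAAA, whose first base lay 205 bases before the start, and Lama2 had 1 match to GGGCGG. Windows were in the table for 30 of the 39 genes, and Lamb2, Nid2, Itga6, Itga7, Itgad, Itgal, Itgb2, Itgb3 and Itgb4 were not among them. Of the 18 detected genes with a window, 11 (61.1%) held GGGCGG and the median GC content was 63.0%, against 4 of 12 (33.3%) and 54.0% for the genes not detected. Of all 33469 windows in the table, 30.5% held GGGCGG and the median GC content was 51.2%. ACAAAG or ACAATG occurred in 3 of the 18 windows of detected genes, those of Itgb1, Itga9 and Itgb8, which was 16.7% against 25.3% of all windows, and TATAAA in 1 of 18 against 12.9%. The shares of windows with the study's shorter SOX10 letters were not counted. A match describes the letters and does not show that a factor binds there.

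The genes that tie laminin into the basement membrane were high as well. Nid2 was at 242 ± 0.388 RPKM, with 270 and 214 RPKM for passage 9, and 271 and 211 RPKM for passage 39. Nid1 was at 123 ± 0.840 RPKM, with 146 and 99.5 RPKM in the passage 9 pair and 148 and 100 RPKM in the passage 39 pair. Nid2 was above Nid1 in every library, and the ratio of Nid1 to Nid2 was between 0.464 and 0.544. Agrn, which encodes the proteoglycan that clusters acetylcholine receptors at the neuromuscular junction and binds laminin, was at 44.1 ± 0.341 RPKM, ranging from 36.6 to 51.8 RPKM over the libraries.

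Itgb1, the beta subunit shared by the laminin, collagen and fibronectin receptors, was the highest of the set. It was at 488 and 432 RPKM for passage 9, and 491 and 438 RPKM for passage 39, and made up 86.3% to 87.7% of the summed RPKM of the beta subunits. Itga6, the alpha subunit of a laminin receptor, was at 137 ± 0.516 RPKM, with 158 and 115 RPKM in the passage 9 pair and 159 and 116 RPKM in the passage 39 pair. It made up 56.0% to 58.9% of the summed RPKM of the alpha subunits, so that a single beta and a single alpha subunit gave most of the integrin RNA in every library. The other 2 subunits of laminin receptors were lower, with Itga7, known from muscle and Schwann cells, at 19.0 ± 0.119 RPKM (17.6 to 20.5 RPKM over the libraries) and Itga3 at 1.54 ± 0.000586 RPKM. Itgb4, the other beta partner of Itga6, which Schwann cells are known to raise when they myelinate, was below 1 RPKM in every library. It was measured at 0.349 and 0.737 RPKM for passage 9, and 0.387 and 0.720 RPKM for passage 39, on 78 to 174 reads. The 95% intervals of its technical replicates, exact Clopper-Pearson intervals of counting error only, did not overlap at either passage. They were 0.279 to 0.432 RPKM and 0.624 to 0.863 RPKM at passage 9, and 0.306 to 0.483 RPKM and 0.617 to 0.835 RPKM at passage 39. Technical replicate 2 was the higher one in both.

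**Figure D2:**
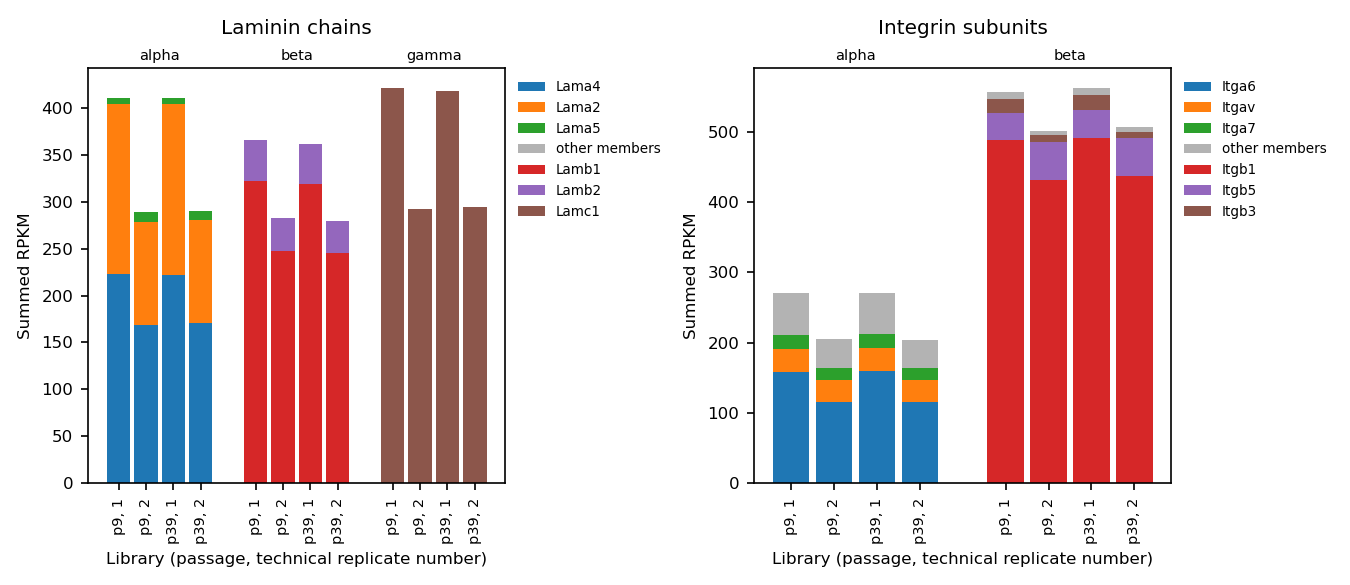
Summed RPKM of the laminin chains (left) and integrin subunits (right) in each library, stacked by gene, with p9 and p39 for the passages and 1 and 2 for the technical replicate. The laminin alpha and gamma bars have nearly the same height within each library, all 3 laminin sums are lower in technical replicate 2, and Itga6 and Itgb1 fill most of the integrin bars.

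Alpha subunits of receptors for other matrix proteins were present at lower levels. Itgav, which pairs with several beta subunits to bind vitronectin and latent TGF-beta, was at 31.9 ± 0.157 RPKM, ranging from 31.2 to 32.9 RPKM over the libraries. Among its partners, Itgb5 was at 46.5 ± 0.287 RPKM and Itgb3 at 15.01 ± 0.671 RPKM, with libraries from 9.24 to 21.7 RPKM. Itgb8, whose pair with Itgav activates latent TGF-beta, was at 7.42 ± 0.372 RPKM, with 9.41 and 4.90 RPKM for passage 9, and 10.1 and 5.31 RPKM for passage 39. Itgb6, another partner of Itgav, known from epithelia, had 1 to 8 reads per library. Itga5, the alpha subunit of the classical fibronectin receptor, was at 12.2 ± 0.264 RPKM, and Itga8, which binds nephronectin, at 5.37 ± 0.161 RPKM. Itga9, a receptor subunit for tenascin-C, was at 12.8 ± 0.166 RPKM (11.4 to 14.1 RPKM over the libraries), and Itga4, which binds VCAM1 and fibronectin, at 10.02 ± 0.241 RPKM. Of the 4 alpha subunits of collagen receptors, Itga1 was at 5.77 ± 0.173 RPKM, and Itga2, Itga10 and Itga11 were below 0.14 RPKM in every library.

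The subunits of blood cells were at or near 0. Itgam was listed at 0 in all 4 libraries, and Itgal, Itgad, Itgax and Itgb2, the other subunits of leukocyte receptors, had at most 2 reads in any library. Itga2b, the platelet subunit, rested on 14 to 20 reads, at 0.0835 to 0.101 RPKM. Itgae, the subunit by which intraepithelial T cells bind E-cadherin, was the exception at 1.54 ± 0.189 RPKM, although Itgb7, its known partner, had 1 to 5 reads per library and Ptprc was listed at 0.

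Levels of the set were close between the libraries labelled passage 9 and those labelled passage 39. None of the 23 detected genes differed by 2-fold or more between passage 39 and passage 9 on the log2(RPKM + 1) scale, and 1 of all 11025 genes did (0.00907%). With 1 population per passage, this comparison has no replicate check and no test. It also rests on the labels, for which an exchange cannot be told apart. Under such an exchange, each passage mean could hold 1 library of each population, and a difference between the populations would cancel. This was not tested. The differences lay between -0.15 for Itgae and 0.09 for Itgb8, with a median of -0.0033, against a median of -0.0021 over all genes. Itgae was at 1.52 and 1.83 RPKM in the passage 9 pair and 1.31 and 1.51 RPKM in the passage 39 pair. It was the single detected gene of the set whose libraries did not overlap between passages (4.35% of the 23, against 6.21% of all genes). Its 95% intervals, 1.34 to 1.73 and 1.61 to 2.07 RPKM against 1.12 to 1.52 and 1.32 to 1.71 RPKM, overlapped between passages within each replicate number. With the difference taken within each replicate number and then averaged, 0 of the 23 reached 2-fold, and 1 of all genes did. The passage differences are balanced over the replicate numbers only when both libraries of each pair are used. With any 1 library left out, 1 passage held a single replicate number, so the values also held part of the replicate difference. They lay between -0.76 for Itga4 without passage 39 technical replicate 1 and 0.68 for Itgb3 without passage 9 technical replicate 1. These values thus do not check the passage difference. None reached 2-fold, and 22 of the 23 changed sign with the library left out. The exception was Itgae, at -0.23 without passage 9 technical replicate 1 and -0.07 without passage 9 technical replicate 2. The difference between the replicate numbers was larger in size than that between the passages for 22 of the 23 genes (95.7%), against 91.2% of all genes.

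The 2 libraries labelled technical replicate 2 had less RNA of most of these genes than the 2 labelled technical replicate 1. With limma on log2(RPKM + 1) across all 11025 genes and Benjamini-Hochberg adjustment, 18 of the 23 were lower in technical replicate 2, 3 were higher and 2 did not pass the test. Over all genes, 24.4% were called lower and 49.4% higher, so 78.3% of the set was called in the direction that held for fewer genes overall. The median difference was -0.38 over the set and 0.10 over all genes. This test compares libraries by their number, with the 2 labelled passages as the spread, and no condition in the labels separates the numbers. Under an exchange of labels, which cannot be told apart, the numbers could instead follow the passages. It depends on the scaling: the share of lower calls among all calls was 33.1% as deposited, 56.6% with each library rescaled to a common sum, 46.6% with median-ratio scaling and 51.1% after correction for gene length. The 3 genes called higher, Lama5, Itgb5 and Itga5, were called higher under every alternative tried. Fewer cells that use a gene and less of its RNA per cell cannot be told apart in bulk RNA.

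Every laminin chain of the main trimers was lower in technical replicate 2. Lama2 differed by -0.72 ± 0.018 (log2 scale, SE, adjusted p = 9.37e-08 by limma), Lamc1 by -0.52 ± 0.016 (adjusted p = 1.94e-07), Lama4 by -0.39 ± 0.017 (adjusted p = 1.08e-06) and Lamb1 by -0.38 ± 0.017 (adjusted p = 1.02e-06). In RPKM, Lama2 was 39.4% lower and Lama4 23.8% lower, and the ratio between them was above 0.8 in the first and below 0.66 in the second technical replicates. Lamb2, both nidogens and agrin were lower by 0.32 to 0.55 on the log2 scale. Lama5 went the other way. It was at 6.33 and 6.43 RPKM in the first and at 10.7 and 10.2 RPKM in the second technical replicates, a difference of 0.64 ± 0.040 (adjusted p = 4.71e-06), so the alpha chains did not move together.

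Among the integrins, 4 genes differed by 2-fold or more on this scale, all lower in technical replicate 2, against 0.726% of all genes that were lower by that much. Itga1 was at 8.53 and 8.19 RPKM in the first and 3.26 and 3.10 RPKM in the second technical replicates, 2.63-fold apart. Itga4 was at 14.3 and 14.1 RPKM against 6.12 and 5.59 RPKM, and Itga8 at 7.66 and 7.48 RPKM against 3.30 and 3.03 RPKM. Itgb3 was at 19.8 and 21.7 RPKM against 9.27 and 9.24 RPKM. The adjusted p of these 4 genes by limma lay between 6.06e-07 and 1.38e-06, and in each the lowest first replicate was more than 2 times the highest second one. Itgb8 followed with a difference of -0.81 ± 0.050. The main subunits were less affected, with Itga6 at -0.46 ± 0.018 and Itgb1 at -0.17 ± 0.016.

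The beta subunits that share Itgav as partner moved in opposite directions. Itgb5 was at 38.9 and 39.9 RPKM in the first and 53.6 and 53.5 RPKM in the second technical replicates (0.43 ± 0.024, limma adjusted p = 2.63e-06), whereas Itgb3 and Itgb8 were lower in the second ones. The ratio of Itgb5 to Itgb3 was 1.96 and 1.83 in the first and 5.79 and 5.79 in the second technical replicates. Itgav itself was at 32.4 and 32.9 RPKM against 31.3 and 31.2 RPKM and did not pass the test (-0.06 ± 0.025, limma adjusted p = 0.0549), though it was called lower with median-ratio scaling (-0.15) and with rescaling to a common sum (-0.21). Itga5 was higher in the second technical replicates, at 11.002 and 10.8 RPKM against 13.8 and 13.3 RPKM (0.29 ± 0.035).

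The calls for the detected genes with the fewest reads changed when a library was left out. Itga3, at 1.72 and 1.67 RPKM against 1.36 and 1.41 RPKM, was called lower (-0.18 ± 0.059, limma adjusted p = 0.0257), and was not called without any 1 of the 4 libraries (adjusted p = 0.107 and 0.0954 without passage 9 technical replicates 1 and 2, 0.0621 and 0.0550 without those of passage 39) or with no filter on low values (0.0569). Itgae differed by 0.14 ± 0.080 (adjusted p = 0.141) and was called higher without passage 39 technical replicate 2 (0.23, adjusted p = 0.0446). No gene of the set passed the test of the number by passage interaction on recovered reads, a two-sided Wald test of counting error with adjustment over 11024 genes, against 0.127% of all genes, and 1 of the 23, Nid2, had an unadjusted p under 0.05 (0.0339).

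**Figure D3:**
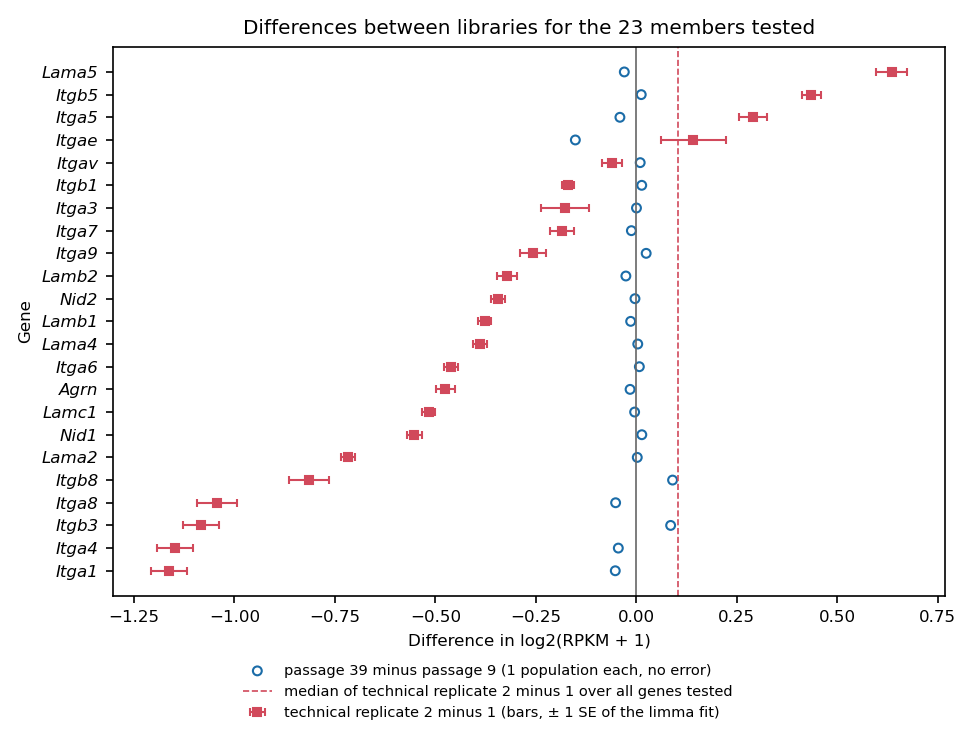
Difference in log2(RPKM + 1) of the 23 detected genes between technical replicate numbers (squares, bars of 1 SE of the limma fit) and between passages (open circles, 1 population each and no error bar), with the median of the replicate difference over all genes as a dashed line. The circles lie between -0.15 and 0.09, while the squares spread from -1.16 for Itga1 to 0.64 for Lama5.

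Gene length moved with the replicate difference. Lengths recovered from the RPKM values had a median of 5623 bp over the 23 genes and 2621 bp over all 11025, and over all genes Spearman's rho between length and the replicate difference was -0.42, a description over genes that share the same 4 libraries. After subtraction of the median difference of genes of like length, the median of the set was -0.33, and 18 of the 23 were again called lower and 3 higher. The difference of Itgav turned to 0.05. Within the set, rho between length and difference over the 23 genes was 0.06, and Lama2 and Lama5, the longest detected chains, lay on opposite sides of 0. Itga4 and Itgb3 had recovered lengths of 1868 and 2050 bp. These may be a fraction of the lengths used, since a factor common to the reads and the length stays hidden. The length correction of these genes rests on the recovered values.

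**Figure D4:**
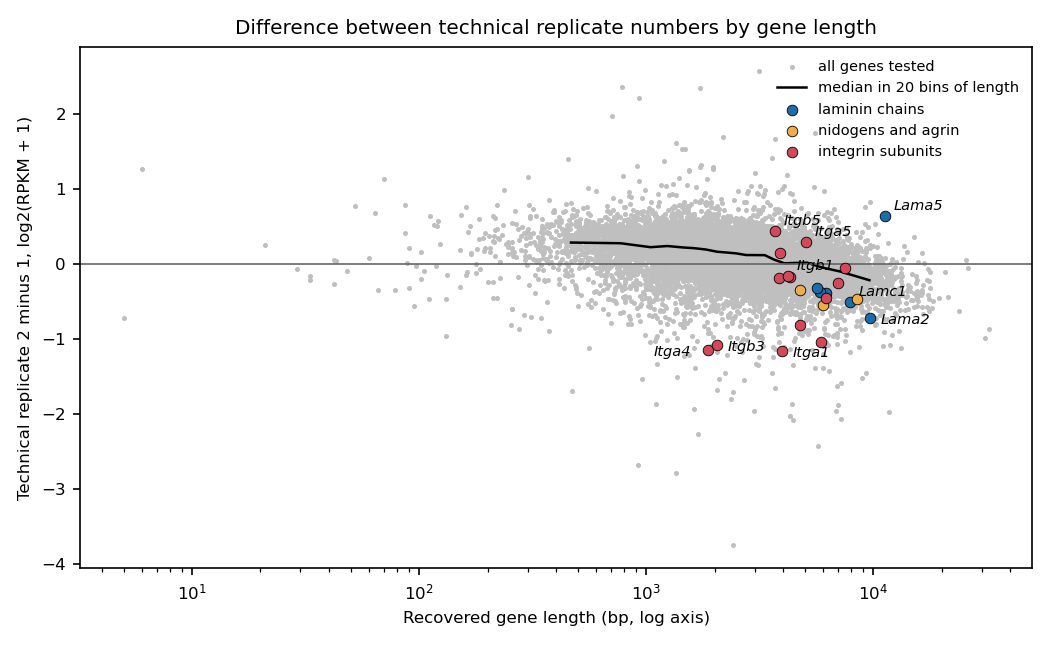
Difference between technical replicates 2 and 1 in log2(RPKM + 1) against recovered gene length on a log axis for all genes tested (grey), with the median in 20 bins of length as a black line and the detected laminin chains, nidogens and agrin, and integrin subunits in colour. The black line falls with length, and Itga1, Itga4 and Itgb3 lie more than 1 log2 unit below 0 at recovered lengths of 1868 to 3953 bp. The recovered lengths of Itga4 and Itgb3 may be a fraction of the lengths used, so their place on the axis is uncertain.

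Genes that work beside these receptors differed in both directions. Of the 22 tested genes that link integrins to the cytoskeleton, 10 were lower in technical replicate 2, 7 were higher and 5 were not called, with a median of -0.04, against 24.4% lower and 49.4% higher over all genes. Flna, which encodes the actin crosslinker filamin A, was at 389 RPKM and differed by -0.13, and Fermt2, the integrin activator kindlin-2, was at 293 RPKM and differed by -0.31. Ilk, the kinase-like adaptor of the beta 1 tail, was at 205 RPKM and differed by 0.21. Of the 9 tested genes for other integrin ligands, 4 were lower and 5 higher, with a median of 0.10, which was that of all genes. Fn1, which encodes fibronectin, was at 780 RPKM and differed by -0.19, and Thbs1, thrombospondin 1, was at 271 RPKM and differed by 0.76. Tnc, the tenascin-C ligand of Itga9, was at 80.9 and 81.0 RPKM in the first and 30.2 and 30.5 RPKM in the second technical replicates. The ligand Vtn, vitronectin, had at most 0.0357 RPKM in any library.

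Of the 11 tested partners in matrix assembly, 2 were lower, 7 higher and 2 not called, with a median of 0.17. Over all genes, 24.4% were lower and 49.4% higher, with a median of 0.10. With 11 genes, no result about this list is drawn from the shares. Sparc, a collagen-binding matrix protein, was at 2514 RPKM and Serpinh1, a collagen chaperone, at 1389 RPKM, with differences of 0.08 and 0.56. Dag1, which encodes dystroglycan, the laminin receptor outside the integrin family, was at 173 RPKM, with 195 and 152 RPKM for passage 9, and 192 and 151 RPKM for passage 39. Its difference of -0.35 was in the direction of the laminins. The Schwann cell markers also moved with the replicate number: 6 of the 8 tested were lower in technical replicate 2, 1 was higher and 1 was not called, with a median of -0.39, and the summed RPKM of the list was 2273 to 2288 in the first and 2127 to 2151 in the second technical replicates. Of the 4 tested fibroblast markers, 1 was lower, 2 were higher and 1 was not called, and the list summed to 3458 to 3473 RPKM in the first and 3851 to 3960 RPKM in the second. Nearly all of this sum was Col1a1, at 3344 and 3359 RPKM in the first and 3877 and 3771 RPKM in the second. The lower one was Col3a1, at 82.8 and 81.9 RPKM against 50.3 and 48.5 RPKM, so the sum does not describe the list as a group. The part of the cell type make-up in the differences of the laminin and integrin genes was not tested.

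**Figure D5:**
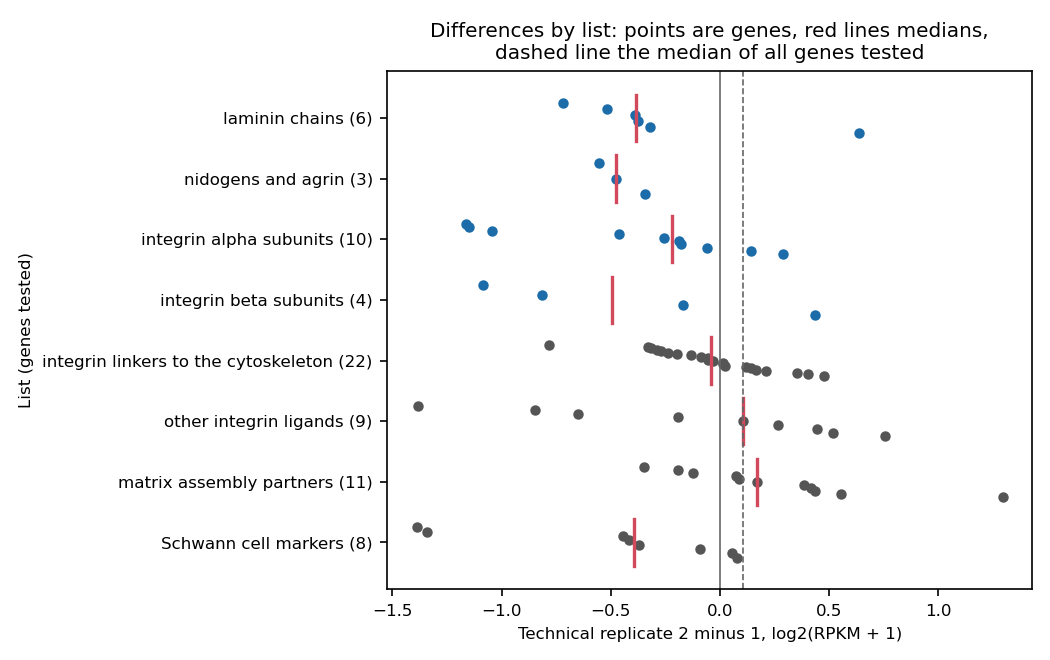
Difference between technical replicates 2 and 1 in log2(RPKM + 1) for each tested gene (points) by list, with list medians as red lines and the median of all genes as a dashed line. The medians of the 4 laminin, basement membrane and integrin groups and of the Schwann cell markers lie below 0, and those of the other integrin ligands and of the matrix assembly partners at 0.10 and 0.17.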

How the data were processed

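RNA-Seq was measured in 4 libraries, 2 for each of 2 S16 cell populations. According to the study's methods, poly(A) libraries were sequenced from single ends and aligned to the rat genome Rnor_5.0 (rn5) with STAR. Reads were counted per gene with HTSeq, with only uniquely mapped reads kept and strand not used. Overlapping genes were thus not told apart by strand. The submitters' processing notes also name FastQC. The authors deposited RPKM values, 1 per gene symbol and library, and the lengths and the totals used for them are not given in the sources used here. The methods state fewer reads per cell line than the totals recovered here for each library, and the cause was not tested. Whole reads, lengths and totals were worked out from how the values relate between libraries, within 1e-05 reads, for 18114 of 18114 genes above 0 in at least 2 libraries, as the smallest whole numbers that give all 4 values, so that for some genes reads and length can both be a fraction of the true ones. Recovery and the limma fit were tested on simulated data. Totals were between 34246093 and 41382234 reads, at which 3 reads of Itgb1 correspond to between 0.0172 and 0.0207 RPKM. The 95% intervals and limits cover counting error only.

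RPKM values were averaged within a population, then over the 2 populations, with the SD over populations. Differences are on the log2(RPKM + 1) scale, which understates changes of low genes, for the 11025 genes whose mean reached 1 RPKM. Technical replicate numbers were compared with limma 3.58.1 (trend, two-sided, Benjamini-Hochberg, threshold 0.05) in R 4.3.3, and the interaction by a Wald test in Python 3.11.15 with scipy 1.17.1. The labels pair libraries only as technical replicates of 1 population, so p-values measure the spread between these libraries, which may be technical. Genes named are all members listed and, of each other list except the cell type markers, at most the 6 highest by mean RPKM, with Vtn named after its value was seen. The cell type markers named were also picked from their lists after their values were seen. One gene of a marker list is not reported here and was left out of its list. Members and lists were chosen with earlier results of these data known. Alternatives were other scalings, pseudocounts and minimums, the passage as a replicate block, limma without trend, each library left out, and a correction for gene length chosen after seeing the data. Promoter windows came from RefSeq (GRCr8), not from the build on which reads were counted.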

Additional observations from a re-analysis of the deposited data

Results flagged for a closer look

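Among 38 genes of the set whose 4 libraries were not all equal, 4 had 1 library far from the other 3. The gap of that library to its nearest neighbour, as a share of the whole range of the 4 libraries, was 1 for Lama1, 1 for Itgad and 1 for Itgb2, each with 1 read in 1 library and 0 in the others. For Itgal the share was 0.848, with 1 read in 3 libraries and 0 in passage 39 technical replicate 1. For continuous values, chance flags about 1 in 20 genes by this measure. That rate does not apply to genes with 0 or 1 read per library, since 1 read in 1 library fixes the share at 1. All 4 values rest on single reads, and none belongs to a detected gene.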

How the results depend on the processing

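The count of detected genes was 24 with libraries rescaled to a sum of 1000000, 24 when 0.1 RPKM was required, 21 when 5 RPKM was required, and 23 otherwise. Of all genes, 0 differed 2-fold by passage with a minimum of 5 RPKM, and 9 to 27 did with 1 library left out. Of 228 alternative values of the passage difference over the 23 genes, 104 moved by more than the SD between the differences of the 2 replicate numbers. The passage values and counts with 1 library left out also hold part of the replicate difference, since 1 passage then held a single replicate number. With rescaling, 4229 of all genes were called lower and 3249 higher in technical replicate 2, with a median of -0.026, and after the length correction 3447 were called higher. Itgav turned to 0.050 after the length correction. With the passage as a replicate block, 18 members, 2687 genes lower and 5483 genes higher were called, and it changed no call of the set. Of 274 alternative values of the replicate difference over the 23 genes, 265 kept their direction and side of the threshold, and 1 turned, 5 lost and 3 gained the call, all of them for Itga3, Itgav and Itgae. Leaving out a library left 1 sample in an arm, which is assumed to vary like the others. Depth limits statements on genes with few reads, and the 2 populations limit those on passage.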
